A study of Rattus norvegicus with 9 samples.

Results

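Bone from ovariectomised rats was compared with bone from sham-operated rats by mRNA sequencing, gene by gene and by the GO and KEGG terms that the submitters attached to each gene. The comparison used 6 of the 9 libraries of the series, 3 labelled OVX and 3 labelled Sham, taken from the columns of the deposited count table that carry those names. All animals were female Sprague–Dawley rats, bought at 8 weeks of age. The OVX rats had both ovaries removed, and from week 6 after surgery they were gavaged for 8 weeks with vehicle, 1% CMC-Na (sodium carboxymethyl cellulose). In the Sham rats the ovaries were left in place and a like amount of the fat beside them was taken out, and they were gavaged with vehicle over the same weeks. By the labels, its strength in the Sham rats was 1% in replicate 1, 2% in replicate 2 and 3% in replicate 3, whereas the methods of the study give the same vehicle for both groups, so the labelled strengths are uncertain. The remaining 3 libraries, OVX-AS-IV-High, came from ovariectomised rats given astragaloside IV at 80 mg/kg, and they were not part of the comparison. They entered the filter on low counts, the scaling of the levels and the estimate of the spread. A gene was called well-expressed when its mean count over the 6 libraries was 100 or more, which held for 12942 of the 23026 genes in the table and for 12942 of the 16874 genes tested.

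Ovariectomy removes the main source of estradiol and is the standard rodent model of postmenopausal bone loss. Estrogen restrains bone resorption by osteoclasts, slows the production of B cell precursors in the marrow and holds back the growth of marrow fat. A piece of long bone holds marrow, vessels, cartilage and adhering muscle as well as bone cells, so its RNA is a mixture. In bulk tissue, fewer cells of a type and less RNA per cell cannot be told apart.

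The 6 libraries held between 34874880 and 36840026 counts, so depth was nearly even. Levels are given as CPM (counts per 1000000) after TMM scaling, which corrects the library totals for composition. Markers of bone, marrow, fat, cartilage and skeletal muscle were all present. Skeletal muscle was uneven: the summed level of 23 muscle genes was 15999 and 11573 CPM in Sham replicates 1 and 2, but 2755 CPM in Sham replicate 3, against 5938, 3284 and 2781 CPM in OVX replicates 1 to 3. None of the 23 muscle genes separated the groups over all 6 libraries. Without Sham replicate 3 all 23 were lower in every OVX library, as were 23.7% of all well-expressed genes. Sham replicate 3 also correlated better over log2 CPM with OVX replicates 2 and 3 (0.974 and 0.976) than with Sham replicates 1 and 2 (0.958 and 0.968). The plot of marker levels shows the same library near the OVX group for muscle, smooth muscle and bone matrix.

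**Figure D1:**
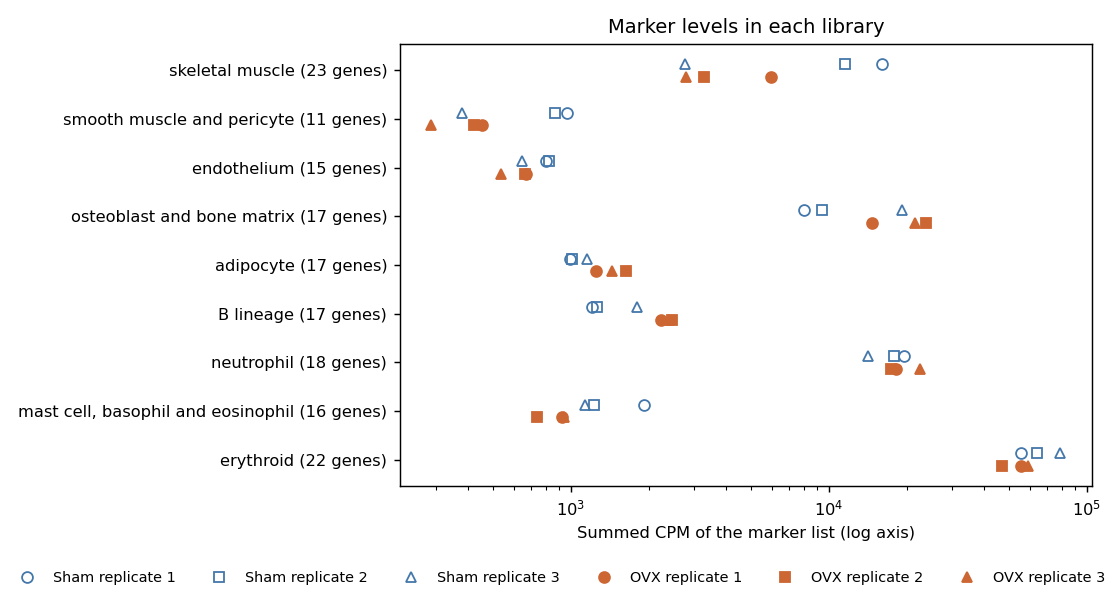
Summed CPM (log axis) of 9 marker lists in each library, open blue symbols for the 3 Sham libraries and filled orange symbols for the 3 OVX libraries. B lineage and adipocyte sums were higher in every OVX library than in any Sham library and the mast cell, basophil and eosinophil sum was lower, while the muscle sum of Sham replicate 3 (2755 CPM) lay with the OVX group.

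Genes were then sorted by whether the groups overlapped. A gene had no overlap when its 3 OVX libraries all lay above, or all below, its 3 Sham libraries. This held for 1860 well-expressed genes higher in OVX (14.4%) and for 1428 lower in OVX (11.0%), together 25.4% of the well-expressed genes. Over all genes tested the shares were 12.7% and 10.6%. Most of these differences were small. The median absolute log2 fold change (log2FC, OVX over Sham) was 0.33 among the genes that were higher and 0.37 among those that were lower, and an absolute log2FC above 1 was seen for 47 and 104 of them.

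No gene passed edgeR's quasi-likelihood test at an adjusted p of 0.05 with these 3 libraries per group. The smallest adjusted p was 0.118, with 2775 of the genes tested at an unadjusted p under 0.05, 1377 higher (8.16%) and 1398 lower (8.28%). DESeq2 called 834 of the genes tested, among them 392 well-expressed genes higher (3.03%) and 374 lower (2.89%). Of the well-expressed genes, 1212 were higher and 1158 lower at an unadjusted edgeR p under 0.05 (9.36% and 8.95%), and 1090 of the former and 908 of the latter had no overlap. An exact permutation test of a single gene over the 20 ways to split the 6 libraries cannot give a p below 0.1. Unless said otherwise, an adjusted p below is DESeq2's, and the verdict of edgeR is that given here. Without Sham replicate 3, the non-overlapping genes numbered 3662 higher (28.3%) and 3066 lower (23.7%).

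The hub genes of the study give the scale of the largest differences. Igfbp2, which binds insulin-like growth factors, was at 13.8, 22.6 and 19.6 CPM in Sham replicates 1 to 3 and at 0.354, 1.13 and 0.326 CPM in OVX, a log2FC of -4.94 ± 1.30 (SE). Lep, the fat hormone leptin, was at 1.24, 2.14 and 1.94 CPM in Sham and 6.49, 19.4 and 5.51 CPM in OVX, with a log2FC of 2.56 ± 0.49. Ptgs2, the inducible cyclooxygenase, was lower in OVX at 3.19, 2.4 and 3.77 CPM against 8.63, 6.54 and 8.82 CPM. The groups did not overlap for these 3 genes. Gfap overlapped, since its Sham mean rested on replicate 3 alone, at 25.1 CPM beside 2.88 and 2.99 CPM. The 4 other hub genes, Il22ra2, Wnt10a, Wnt1 and Gzmb, were below the count minimum. All genes described from here on lie outside that set, except where a gene list holds one.

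For the widest gap between the groups, 12 genes were named in each direction, the gap being the distance in log2 CPM from the lowest library of the higher group to the highest library of the lower group. Groups that do not overlap were thus a condition of the choice, and no further support for these genes. C5h8orf88 led those higher in OVX. It was at 0.742, 0.939 and 1.75 CPM in Sham and 4.47, 6.81 and 3.8 CPM in OVX, a log2FC of 2.13 ± 0.35 (SE, adjusted p = 1.93e-06). Rhbg, an ammonium transporter of the Rhesus family, was at 2.01, 0.88 and 1.1 CPM in Sham and 4.09, 5.3 and 5.07 CPM in OVX. The lowest OVX library was well above the highest Sham library. Rnase2, a ribonuclease of eosinophil and myeloid granules, was at 27.1, 28.4 and 17.6 CPM in Sham and 61.1, 60.9 and 52.4 CPM in OVX, a log2FC of 1.25 ± 0.20 (adjusted p = 6.54e-06).

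Several of these genes are lymphocyte genes. Btla, an inhibitory receptor of B and T cells, was at 13.9, 13.6 and 20.3 CPM in Sham and 33.1, 34.4 and 40.7 CPM in OVX, a log2FC of 1.18 ± 0.16 (adjusted p = 1.29e-07). Gpr174, a lysophosphatidylserine receptor of lymphocytes, was at 6.29, 3.84 and 5.07 CPM in Sham and 11.4, 18.4 and 12.3 CPM in OVX. Nuggc, a nuclear GTPase named for germinal centre B cells, was at 1.84, 1.64 and 2.39 CPM in Sham and 4.31, 5.38 and 6.16 CPM in OVX. All 3 were chosen for a lowest OVX library above the highest Sham library. Gpr174 varied within each group about as much as the gap between them. Gbp5, an interferon-inducible GTPase that promotes inflammasome assembly, was at 9.81, 8.15 and 9.55 CPM in Sham and 16.3, 20.9 and 20.3 CPM in OVX.

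Neil1, a glycosylase that starts base excision repair of oxidised DNA, had one of the tightest differences. Its levels were 29.7, 27 and 28.6 CPM in Sham and 48.2, 51.6 and 51.6 CPM in OVX, a log2FC of 0.83 ± 0.11 (adjusted p = 1.13e-07). Nnat, an imprinted membrane proteolipid, was at 12.9, 16.3 and 19.7 CPM in Sham and 41.5, 32.8 and 34.9 CPM in OVX. C6h14orf180 was at 1.46, 2.23 and 2.76 CPM in Sham and 4.5, 9.65 and 6.24 CPM in OVX. The other members of the set, Gpd1 and Retn, are fat cell genes described below.

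P2rx7 headed the genes lower in OVX. It encodes an ATP-gated ion channel of macrophages and bone cells, and was at 5.28, 5.6 and 5.16 CPM in Sham and 1.69, 2.22 and 1.22 CPM in OVX, a log2FC of -1.64 ± 0.37 (SE, adjusted p = 0.00159). Adamtsl1, a secreted matrix protein related to the ADAMTS proteases, was at 4.18, 5.34 and 5.07 CPM in Sham and 1.83, 1.71 and 1.09 CPM in OVX, with a log2FC of -1.65 ± 0.25 (adjusted p = 3.4e-07). In both genes the Sham libraries lay close together and far above every OVX library. Clcn2, a voltage-gated chloride channel, was at 23.6, 32.8 and 50 CPM in Sham and 6.92, 10.1 and 12.1 CPM in OVX, a log2FC of -1.87 ± 0.29 (adjusted p = 4.88e-07).

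Homer1, a scaffold of glutamate receptor and calcium signalling, was at 8.16, 8.59 and 7.38 CPM in Sham and 3.68, 2.9 and 2.39 CPM in OVX. Gpr4, a proton-sensing receptor of endothelium, was at 11.8, 11.4 and 9.78 CPM in Sham and 5.34, 5.49 and 3.2 CPM in OVX. Ntrk2, the receptor for brain-derived neurotrophic factor, was at 6.7, 6.81 and 5.33 CPM in Sham and 3.05, 2.74 and 1.68 CPM in OVX. These 3 genes were chosen for the width of that gap, so their groups lie apart by selection. Ppl, the desmosomal linker periplakin, was at 15.5, 11.5 and 9.78 CPM in Sham and 5.12, 4.14 and 3.77 CPM in OVX.

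Dysf encodes dysferlin, a membrane repair protein best known from muscle. Its levels were 33.8, 33.2 and 31.7 CPM in Sham and 18, 16.8 and 18 CPM in OVX, a log2FC of -0.90 ± 0.13 (adjusted p = 1.38e-06). Sham replicate 3, whose muscle marker sum was as low as that of the OVX libraries, had a Dysf level close to those of the other Sham libraries. Lamc3, a laminin chain of basement membranes, behaved otherwise: 10.9, 11.9 and 3.24 CPM in Sham and 1.5, 1.35 and 1.84 CPM in OVX, with Sham replicate 3 nearest to the OVX group. Lamb2, another laminin chain, was at 194, 224 and 174 CPM in Sham and 95, 113 and 93.9 CPM in OVX (log2FC -0.97 ± 0.18, adjusted p = 0.000138).

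Prss29 and Pcp4l1 had the largest fold differences of the set, and both varied widely among the Sham libraries. Prss29, a serine protease, was at 28.5, 119 and 116 CPM in Sham and 13.9, 14.9 and 15 CPM in OVX, a log2FC of -2.59 ± 0.56 (adjusted p = 0.00461). Pcp4l1 was at 4.97, 22.9 and 21.2 CPM in Sham and 2.89, 1.48 and 0.95 CPM in OVX, a log2FC of -3.20 ± 0.62 (adjusted p = 6.93e-06). In both genes Sham replicate 1 was the low Sham library. Erfe, the last of the set, is described with the iron genes.

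**Figure D2:**
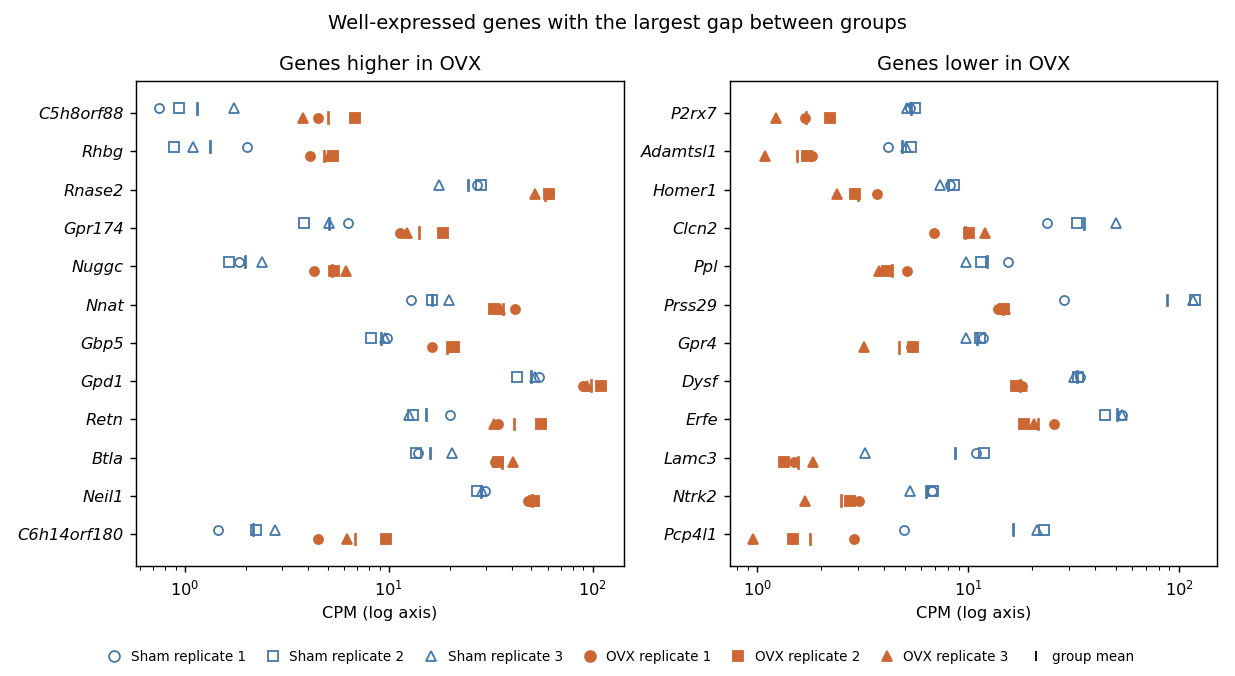
CPM (log axis) of the 12 well-expressed genes in each direction with the widest gap between groups, each symbol 1 library and each short bar a group mean. The genes were chosen so that Sham and OVX symbols do not overlap in any row. The OVX libraries of Dysf (16.8 to 18 CPM) and the Sham libraries of P2rx7 (5.16 to 5.6 CPM) are among the tightest.

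Among the most abundant transcripts without overlap, the differences were modest. Lyz2, the lysozyme of macrophages and neutrophils, was at 6144, 6249 and 5811 CPM in Sham and 8731, 8049 and 7799 CPM in OVX, a log2FC of 0.43 ± 0.12 (SE, adjusted p = 0.00765). Anxa1, an anti-inflammatory phospholipid-binding protein of myeloid cells, was at 731, 759.7 and 662 CPM in Sham and 914, 973 and 1185 CPM in OVX. Both are myeloid products, and both were chosen among genes with all OVX libraries above the Sham range. The other genes of this kind higher in OVX were Mpo (below), Ptma and the ribosomal protein genes Rps6, Rps3a, Rpl3 and Rps24, whose log2FC ran from 0.05 (Rps24) to 0.36 (Rpl3) and whose adjusted p was 0.175 or more. The abundant genes lower in OVX were Hba-a1, Hba-a2 and Ftl1 (below), Ybx3, Il17ra, Srsf2, Rplp2 and Rpl8. Ybx3, a cold-shock protein that binds DNA and RNA, was at 1725, 1595 and 2108 CPM in Sham and 1329, 1087 and 1284 CPM in OVX (log2FC -0.55 ± 0.15, adjusted p = 0.0133). Il17ra, the interleukin 17 receptor, separated by a hair: Sham replicate 3 was at 625 CPM and the highest OVX library at 620.1 CPM.

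The B lineage was the gene list with the largest share of separated members. Of 17 well-expressed B lineage genes, 16 were higher in OVX without overlap and none was lower, against 14.4% and 11.0% of all well-expressed genes. The median log2FC over the 17 was 0.73, and 16 were at an unadjusted edgeR p under 0.05 while 12 passed DESeq2. The signalling chains of the B cell receptor lay high: Cd79a was at 236, 236 and 332 CPM in Sham and 432, 456 and 446 CPM in OVX, a log2FC of 0.73 ± 0.18 (SE, adjusted p = 0.00547). Cd79b, its partner chain, was at 116, 122 and 148 CPM in Sham and 215, 209 and 197 CPM in OVX, a log2FC of 0.68 ± 0.15 (adjusted p = 0.00299). The OVX libraries of these genes were nearly level with each other.

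The transcription factors that commit cells to the lineage differed less. Ebf1 was at 91.1, 79.8 and 86.7 CPM in Sham and 108, 122 and 120.4 CPM in OVX (log2FC 0.44 ± 0.10), and Pax5 had a log2FC of 0.38 ± 0.11. Genes of early precursors, in which the antigen receptor genes are cut and joined, differed more. Rag1, a subunit of the recombinase, was at 38.5, 61.6 and 104 CPM in Sham and 115, 141.3 and 141.1 CPM in OVX (log2FC 0.96 ± 0.36), and Igll1, a surrogate light chain, was at 18.4, 14.4 and 43.6 CPM and 53.4, 57.6 and 59.2 CPM (log2FC 1.15 ± 0.43). Sham replicate 3 was the highest Sham library in both. Dntt, the terminal transferase of pro-B cells, was the 1 list member that overlapped, with Sham replicate 3 at 45.8 CPM beside OVX libraries at 43.5, 51.1 and 41.7 CPM.

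Genes of mature B cells were also higher. Cr2, the complement receptor of naive B cells, was at 17.2, 16.6 and 16.3 CPM in Sham and 30.1, 29.7 and 22.7 CPM in OVX (log2FC 0.72 ± 0.15, adjusted p = 0.00247). Ms4a1, which encodes CD20, was at 28.3, 38.3 and 42.2 CPM in Sham and 69.6, 60.2 and 55.3 CPM in OVX. For 13 of the 16 separated genes, Sham replicate 3 was the Sham library nearest to OVX. Without it, all 17 were higher in OVX without overlap, as were 28.3% of all well-expressed genes. With the muscle marker level as a covariate, 16 were at an unadjusted p under 0.05 in this direction, as were 8.39% of all well-expressed genes. Of 8 well-expressed plasma cell genes, 1 (Irf4) was higher without overlap. Among 12 T and NK cell genes 3 were: Nkg7 (117, 100.4 and 89.4 CPM in Sham, 131, 155 and 148 CPM in OVX), Lck and Cd5. The other genes of this list overlapped. Gzmk rested on OVX replicate 2, at 16.9 CPM there and at 1.47 and 1.03 CPM in OVX replicates 1 and 3. Without OVX replicate 3, 6 of the 12 were higher without overlap, as were 17.0% of all well-expressed genes.

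Fat cell genes were the next list by share. Of 17 well-expressed adipocyte genes, 11 were higher in OVX without overlap and none was lower, the median log2FC was 0.58, and 7 passed DESeq2. Adipoq, which encodes the fat hormone adiponectin, was at 32.6, 28.5 and 75.3 CPM in Sham and 104, 110.1 and 133 CPM in OVX, a log2FC of 1.35 ± 0.39 (SE, adjusted p = 0.0101). Retn, the hormone resistin, was at 20, 13.2 and 12.5 CPM in Sham and 34.1, 55.8 and 32.6 CPM in OVX, a log2FC of 1.42 ± 0.41. Gpd1 makes the glycerol backbone of triglyceride and was at 54.3, 42.7 and 52.3 CPM in Sham and 89.9, 110.3 and 94.1 CPM in OVX (log2FC 0.98 ± 0.18, adjusted p = 8.59e-05). These hormones and this enzyme were named because their groups did not overlap.

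Some lipid droplet proteins also separated the groups. Plin1, a coat protein, was at 31.8, 27.5 and 42.1 CPM in Sham and 53.7, 85.7 and 80.8 CPM in OVX (log2FC 1.12 ± 0.28), and Cidea was at 3.52, 4.99 and 4.03 CPM and 7, 10.1 and 8.25 CPM (log2FC 1.02 ± 0.25). Aqp7, the glycerol channel of fat cells, which stands in the KEGG PPAR signaling pathway, was at 4.42, 6.37 and 5.95 CPM in Sham and 13.5, 18.8 and 9.87 CPM in OVX (log2FC 1.33 ± 0.32, adjusted p = 0.00381). The master regulators differed little: Pparg had a log2FC of 0.35 ± 0.17 and Cebpa of 0.28 ± 0.09. The lipases that break triglyceride down did not separate, with Lipe at a log2FC of -0.04 ± 0.16 and Pnpla2 at -0.28 ± 0.17. Cfd, Plin4, Pck1 and Dgat2 overlapped too.

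**Figure D3:**
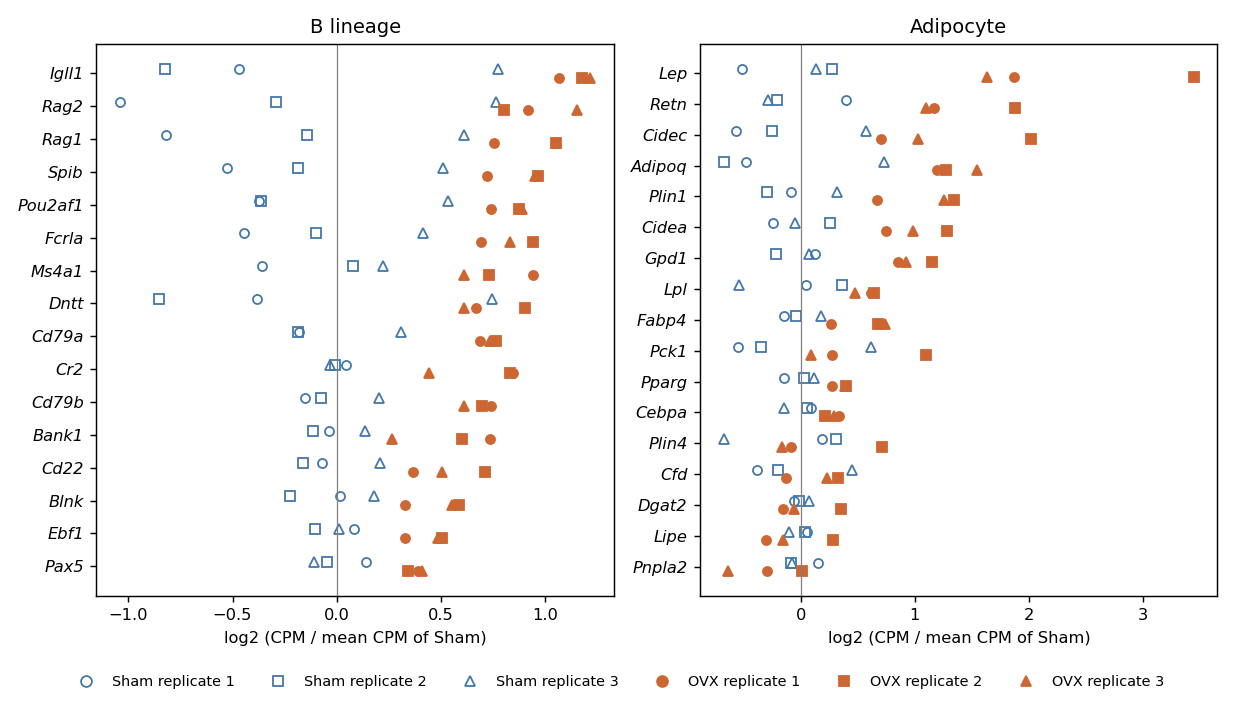
Level of 16 of the 17 well-expressed B lineage genes (left) and of each well-expressed adipocyte gene (right) in each library, as log2 of CPM over the mean CPM of Sham, with open blue symbols for Sham and filled orange symbols for OVX. On the left only Dntt overlaps and Sham replicate 3 is often the Sham library nearest to OVX, and on the right 11 of 17 genes do not overlap, with Lep in OVX replicate 2 the farthest point.

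Enzymes of fatty acid synthesis followed the fat genes in part. Of 15 well-expressed members, 7 were higher in OVX without overlap and none was lower. Fasn, fatty acid synthase, was at 48.7, 45.4 and 64.4 CPM in Sham and 81.8, 94.7 and 77.1 CPM in OVX (log2FC 0.68 ± 0.18, adjusted p = 0.0148). Scd2, a desaturase that introduces a double bond into fatty acids, was nearly identical among Sham libraries at 86.3, 84.7 and 85.9 CPM and was at 139, 140.5 and 125 CPM in OVX. Scd, a related desaturase, was at 7.91, 4.9 and 34.9 CPM in Sham and 54.6, 45.5 and 94.8 CPM in OVX (log2FC 2.03 ± 0.73), Sham replicate 3 again being the highest. Acacb, the acetyl-CoA carboxylase of oxidative tissues such as muscle, overlapped and ran the other way, with 25.3 and 21.7 CPM in Sham replicates 1 and 2 and 4.65 CPM in Sham replicate 3. In the sterol synthesis list 3 of 22 members were higher without overlap, which is 13.6%, close to the share of all well-expressed genes.

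Neutrophil genes were higher in OVX in part. Of 18 well-expressed members, 6 were higher in OVX without overlap and none was lower. They included some proteins of the primary granules, which are made in promyelocytes. Prtn3, another primary granule protease of the list, overlapped. Mpo, myeloperoxidase, was at 1244, 1198 and 973 CPM in Sham and 1437, 1576 and 1690 CPM in OVX (log2FC 0.46 ± 0.13, adjusted p = 0.0148). Ctsg, the granule protease cathepsin G, was at 552, 509 and 447 CPM in Sham and 677, 756 and 879 CPM in OVX (log2FC 0.62 ± 0.12, adjusted p = 0.000581). Fcnb, a ficolin of immature myeloid cells, was at 313, 335 and 297 CPM in Sham and 659, 491 and 567 CPM in OVX (log2FC 0.86 ± 0.19), and Elane, neutrophil elastase, had a log2FC of 0.59 ± 0.14. The other separated genes were Lcn2, a protein of the secondary granules, which are made later, and Cxcr2, a chemokine receptor of mature neutrophils. The groups overlapped for S100a8 (log2FC 0.11 ± 0.17), Csf3r (-0.22 ± 0.17), Camp and Mmp8, whose products also belong to later stages. Without Sham replicate 3, 6 neutrophil genes were higher and 4 lower without overlap, when 28.3% and 23.7% of all well-expressed genes were. Of the macrophage and monocyte genes, 2 of 14 were higher without overlap, Ly86 and Ccr2. That is 14.3%, about the share of all well-expressed genes (14.4%). Ccr2, the receptor by which monocytes leave the marrow, was at 93.7, 75.5 and 62.4 CPM in Sham and 138, 111 and 120.1 CPM in OVX.

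Several eosinophil genes were lower in OVX, whereas Rnase2, described above and no member of this list, was higher. Of 15 well-expressed mast cell, basophil and eosinophil genes, 7 were lower without overlap and none was higher. Without Sham replicate 3, 10 were lower and 1 higher, when 23.7% and 28.3% of all well-expressed genes were. Prg3, a major basic protein of eosinophil granules, was at 189.9, 100.6 and 85.5 CPM in Sham and 56.3, 38.6 and 52.8 CPM in OVX, a log2FC of -1.35 ± 0.29 (SE, adjusted p = 0.000474). Epx, eosinophil peroxidase, was at 533, 229 and 252 CPM in Sham and 170.3, 113 and 193 CPM in OVX (log2FC -1.09 ± 0.32, adjusted p = 0.0152). Sham replicate 1 was the highest library for both. Il5ra and Ccr3, the eosinophil receptors for interleukin 5 and eotaxin, had log2FC values of -0.96 ± 0.37 and -0.60 ± 0.29. The mast cell genes were mixed. Cma1, chymase, was at 44.4, 40.5 and 44.8 CPM in Sham and 37.5, 36.3 and 21.5 CPM in OVX, whereas Cpa3, Kit and Fcer1a overlapped.

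In the red cell lineage, 4 of 22 well-expressed genes were lower in OVX without overlap and none was higher, and the log2FC was below 0 for 19 of the 22, with a median of -0.22. Hba-a1, an alpha globin and the most abundant gene named here, was at 34196, 35070 and 44702 CPM in Sham and 29164, 25394 and 31495 CPM in OVX (log2FC -0.41 ± 0.16, adjusted p = 0.0791). The alpha globin copies share sequence, so their counts cannot be fully parted. Hbb, a beta globin, went the other way with a log2FC of 0.26 ± 0.29 and overlapped. Tal1, a transcription factor that establishes the lineage, was at 381, 536 and 537 CPM in Sham and 373, 251 and 296 CPM in OVX (log2FC -0.66 ± 0.17, adjusted p = 0.0106). For all 4 genes Sham replicate 1 was the Sham library nearest to OVX.

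Iron handling genes included the clearest single difference of this lineage. Erfe encodes erythroferrone, a hormone by which erythroid cells hold down hepcidin and so release iron, and it was at 53.5, 44.5 and 53.8 CPM in Sham and 25.4, 18.5 and 20.6 CPM in OVX. Its log2FC was -1.23 ± 0.16 (SE, adjusted p = 2.2e-08), the smallest unadjusted edgeR p of the genes named. Hmox1, the heme oxygenase that frees iron from heme, was at 235, 210.2 and 297 CPM in Sham and 146, 132 and 162 CPM in OVX (log2FC -0.75 ± 0.13, adjusted p = 7.07e-05). Ftl1, the ferritin light chain, was at 1731, 1686 and 2080 CPM in Sham and 1413, 1384 and 1435 CPM in OVX (log2FC -0.38 ± 0.12, adjusted p = 0.0281). In total 5 of 17 well-expressed iron genes were lower without overlap, the others being Tfr2 and Slc25a38, and 1, Ireb2, was higher. Tfrc, the transferrin receptor, overlapped at a log2FC of -0.16 ± 0.24. Slc25a39, a mitochondrial carrier annotated to 2 iron, 2 sulfur cluster binding, was at 339, 319 and 418 CPM in Sham and 261, 214 and 269 CPM in OVX.

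The circadian clock was the list with the largest share of lower genes. The clock is a feedback loop in which CLOCK and BMAL1 bind E-boxes and drive Per, Cry, Nr1d and the PAR-bZIP factors Dbp, Tef and Hlf, and the products of the first 3 families repress the loop in turn. Of 19 well-expressed members, 11 were lower in OVX without overlap and 1, Clock, was higher, with a median log2FC of -0.85. DESeq2 called 9 of the 11, and Usp2, whose groups overlapped. The perfect E-box CACGTG stood within the 250 bases before the start of 5 of the 11 separated clock genes that have a RefSeq promoter window, against 5.59% of 33469 windows. The D-box TTATGTAA, read by Dbp, Tef and Hlf, stood in 1 of the 11, Per2, against 0.828% of windows. Both strands were searched, a gene counted if any of its windows matched, and a match is a description of the sequence only. Other motifs were searched before separated genes of other lists. The EBF1 site stood in 0 of 11 B lineage genes and the PPAR site in 0 of 8 adipocyte genes, against 0.738% and 0.0508% of windows. The estrogen response element stood in 0 of 1 estrogen list gene and the heat shock element in 1 of 4 heat shock genes (0.0239% and 0.663% of windows). Of 8 immediate early genes, 2 held the cyclic AMP element and 1 the serum response element (1.59% and 0.0299% of windows). Where a site is this rare, its absence from so few genes says little. The stretches below are printed because they hold the E-box or the D-box in front of clock genes that separated the groups. They come from RefSeq on GRCr8, each read 5′ to 3′ on the strand of its gene, with the motif in capitals.

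Ciart, chr2:186112257-186112355, minus strand: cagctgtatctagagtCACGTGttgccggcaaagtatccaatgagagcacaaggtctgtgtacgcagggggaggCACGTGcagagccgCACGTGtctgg
Nr1d1, chr10:84229595-84229684, minus strand: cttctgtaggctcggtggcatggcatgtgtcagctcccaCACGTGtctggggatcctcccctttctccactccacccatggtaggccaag
Tef, chr7:115206597-115206686, plus strand: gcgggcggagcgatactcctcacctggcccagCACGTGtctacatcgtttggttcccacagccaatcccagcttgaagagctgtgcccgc
Bhlhe41, chr4:180569356-180569445, minus strand: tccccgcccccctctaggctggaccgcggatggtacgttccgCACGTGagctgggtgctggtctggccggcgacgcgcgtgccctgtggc
Bhlhe40, chr4:143174200-143174289, plus strand: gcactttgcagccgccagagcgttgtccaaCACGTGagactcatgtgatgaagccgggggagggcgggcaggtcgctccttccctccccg
Per2, chr9:99497134-99497223, minus strand: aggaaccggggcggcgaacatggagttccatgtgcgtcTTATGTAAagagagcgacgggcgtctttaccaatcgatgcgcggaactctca

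Ciart, which holds 3 copies of the E-box in this stretch and represses CLOCK and BMAL1, was at 5.66, 5.93 and 3.16 CPM in Sham and 1.66, 0.765 and 2.63 CPM in OVX (log2FC -1.54 ± 0.42, adjusted p = 0.0154). Nr1d1, the repressor REV-ERB alpha, was at 94.6, 66.4 and 52.8 CPM in Sham and 23.4, 17.8 and 32.1 CPM in OVX, a log2FC of -1.55 ± 0.28 (adjusted p = 3.25e-05). Per2 was at 52.1, 57.4 and 46.5 CPM in Sham and 15.2, 15.2 and 37.2 CPM in OVX (log2FC -1.21 ± 0.32, adjusted p = 0.00974). OVX replicate 3 stood between the other OVX libraries and Sham in all of them. Dbp showed it most, with 119, 93.1 and 83.4 CPM in Sham and 17.9, 18.1 and 67 CPM in OVX (log2FC -1.52 ± 0.47).

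For all 11 lower clock genes OVX replicate 3 was the OVX library nearest to Sham, and for 10 of the 11 Sham replicate 3 was the Sham library nearest to OVX. The activators of the loop, which peak at the other end of the day, split in the same place. Bmal1 was at 3.46, 4.08 and 6.23 CPM in Sham and at 15.3 and 16.6 CPM in OVX replicates 1 and 2, but at 2.98 CPM in OVX replicate 3. Npas2, a partner that can stand in for CLOCK, was at 12 and 11.8 CPM in OVX replicates 1 and 2 and at 0.461 CPM in OVX replicate 3, against 2.45, 1.88 and 0.845 CPM in Sham. Without OVX replicate 3, 4 of the 19 clock genes were higher and 11 lower without overlap, when 17.0% and 13.7% of all well-expressed genes were. The hour at which each animal was killed is not given in the sources used here.

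Immediate early genes are switched on within minutes by growth factors, stress or handling of tissue. Of 25 well-expressed members, 11 were lower without overlap and none was higher, the log2FC was below 0 for 23, and the median was -0.39. Their summed level overlapped, at 1965, 2267 and 2144 CPM in Sham and 1357, 2083 and 1539 CPM in OVX. Nr4a1, an orphan nuclear receptor, was at 35.6, 48.9 and 27.6 CPM in Sham and 15, 22.4 and 13.8 CPM in OVX (log2FC -1.13 ± 0.29, adjusted p = 0.00905). Atf3, a stress-induced repressor, was at 8.65, 7.25 and 5.69 CPM in Sham and 4.41, 2.43 and 1.74 CPM in OVX (log2FC -1.33 ± 0.39, adjusted p = 0.0243). Those 2 were the members that passed DESeq2. Fosb had the largest difference, with 6.73, 6.86 and 3.55 CPM in Sham and 0.954, 3.38 and 0.624 CPM in OVX (log2FC -1.79 ± 0.64). Fos and its partner Junb had log2FC values of -0.75 ± 0.29 and -0.39 ± 0.12. OVX replicate 2 was the OVX library nearest to Sham for 6 of the 11 genes. At an unadjusted edgeR p under 0.05, 13 members were lower, and 9 with the muscle marker level as a covariate (7.99% of all well-expressed genes).

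Of 17 well-expressed heat shock genes, 4 were lower without overlap and 1 higher (23.5% and 5.88%), against 11.0% and 14.4% of all well-expressed genes. Hspa1a, the inducible HSP70, was at 12.1, 7.07 and 3.97 CPM in Sham and 3.38, 1.74 and 0.624 CPM in OVX (log2FC -2.01 ± 0.67, adjusted p = 0.0322). Bag3, its co-chaperone and abundant in muscle, was at 37.4, 36.5 and 18.4 CPM in Sham and 18.2, 17 and 10.2 CPM in OVX.

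**Figure D4:**
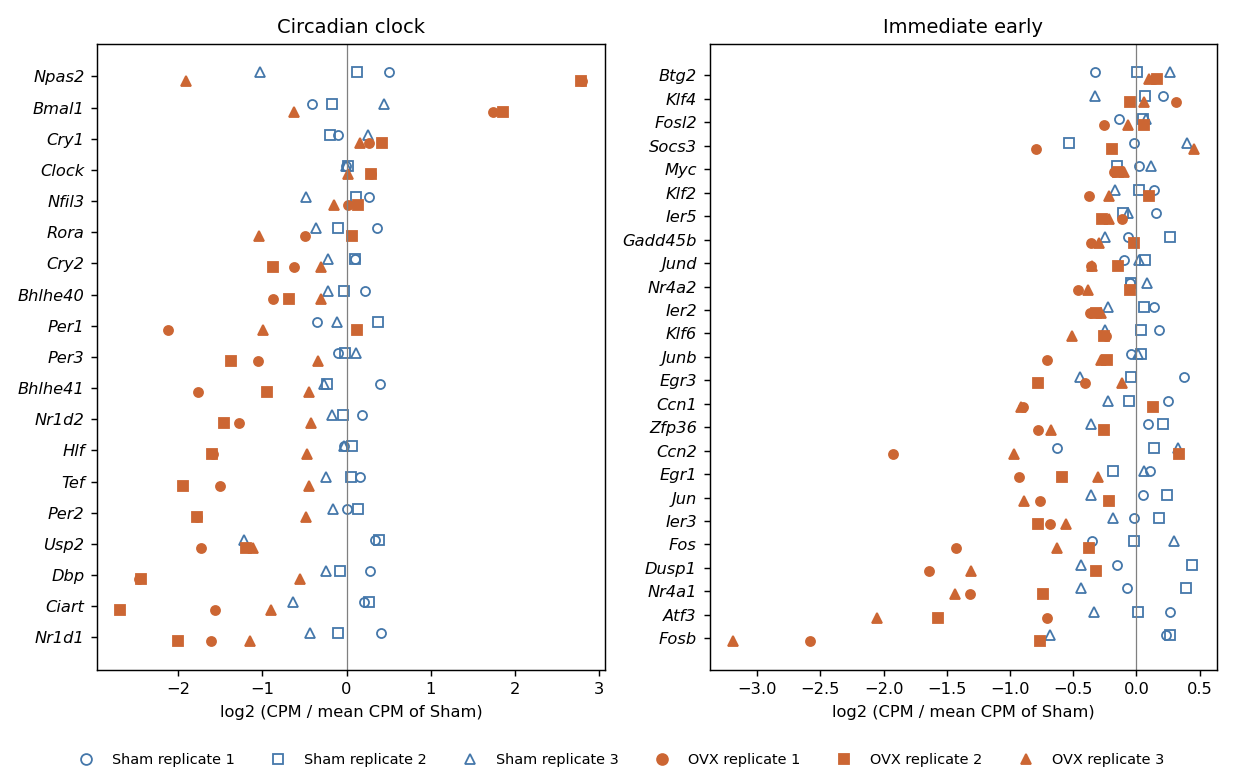
Level of each well-expressed circadian clock (left) and immediate early (right) gene in each library, as log2 of CPM over the mean CPM of Sham, with open blue symbols for Sham and filled orange symbols for OVX. On the left OVX replicate 3 lies apart from OVX replicates 1 and 2, above them in the 11 lower genes and below them in Bmal1 and Npas2, and on the right OVX values lie mostly left of 0.

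Vessel wall genes were lower in part. Of 10 well-expressed smooth muscle and pericyte genes, 3 were lower without overlap, and these are the contractile genes. Myh11, smooth muscle myosin, was at 80.3, 71.6 and 33.4 CPM in Sham and 27, 23.6 and 12.5 CPM in OVX, a log2FC of -1.55 ± 0.40 (SE, adjusted p = 0.00446). Tagln was at 91.4, 77.4 and 50.5 CPM and 41.1, 33.5 and 15.9 CPM, and Acta2 at 73.5, 62.8 and 31.2 CPM and 27.8, 25.9 and 12.1 CPM. Sham replicate 3, low in skeletal muscle markers, was also the lowest Sham library for all 3. Without it 7 of the 10 were lower without overlap, as were 23.7% of all well-expressed genes. The pericyte genes Pdgfrb, Notch3 and Kcnj8 overlapped.

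Of 15 well-expressed endothelial genes, 4 were lower without overlap and none was higher. Stab1, a scavenger receptor of marrow sinusoids and macrophages, was at 80.7, 63.8 and 59.3 CPM in Sham and 35.2, 43.3 and 34.9 CPM in OVX (log2FC -0.85 ± 0.14, adjusted p = 3.35e-05). Eng, a co-receptor for TGF-beta, was at 61.1, 64.6 and 64.1 CPM in Sham and 48.7, 48.6 and 52.1 CPM in OVX, and Emcn and Plvap were the others. The log2FC was below 0 for 11 of the 15, with a median of -0.30. Without Sham replicate 3, 8 were lower and 2 higher without overlap, when 23.7% and 28.3% of all well-expressed genes were. The groups overlapped for other members, with log2FC values of -0.06 ± 0.20 for Pecam1 and 0.02 ± 0.09 for Kdr. Vegfa, the growth factor that acts on Kdr, was at 148, 109 and 82.6 CPM in Sham and 72.5, 73.4 and 61.8 CPM in OVX (log2FC -0.71 ± 0.23, adjusted p = 0.0626).

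Few genes of the bone cells themselves separated the groups. Of 17 osteoblast and bone matrix genes 1 did, Bglap, which encodes osteocalcin. It was at 211, 334 and 512 CPM in Sham and 636, 955 and 854 CPM in OVX, a log2FC of 1.21 ± 0.39 (SE, adjusted p = 0.0255). Type I collagen overlapped through Sham replicate 3: Col1a1 was at 2111, 2851 and 7186 CPM in Sham and 5772, 9033 and 7882 CPM in OVX (log2FC 0.90 ± 0.48). Without that library 9 of the 17 were higher in OVX without overlap, as were 28.3% of all well-expressed genes. The regulators Runx2 and Sp7 had log2FC values of -0.03 ± 0.16 and 0.38 ± 0.25.

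No osteoclast gene separated the groups. Of the 16 well-expressed, none was without overlap in either direction, and none was at an unadjusted edgeR p under 0.05. Ctsk, the collagen-degrading cathepsin of osteoclasts, was at 271, 591 and 1003 CPM in Sham and 634, 1167 and 1314 CPM in OVX (log2FC 0.74 ± 0.49), and Acp5 had a log2FC of 0.26 ± 0.39. Without Sham replicate 3, 4 were higher and 1 lower without overlap, when 28.3% and 23.7% of all well-expressed genes were. Among the 8 genes that govern osteoclast formation none separated either. Tnfsf11, the osteoclast-inducing ligand RANKL, was at 4.51, 8.39 and 5.21 CPM in Sham and 4.28, 9.76 and 6.81 CPM in OVX, and its decoy receptor Tnfrsf11b at 67.8, 36.3 and 28.5 CPM and 18.5, 35.8 and 57.7 CPM. For Ctsk and Tnfrsf11b the libraries of 1 group alone differed severalfold.

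Of 10 osteocyte genes, 1 was lower without overlap (10.0%), about the share of all well-expressed genes (11.0%). Fgf23, the phosphate-lowering hormone of osteocytes, was at 5.41, 3.84 and 7.64 CPM in Sham and 1.96, 1.95 and 2.69 CPM in OVX (log2FC -1.35 ± 0.46, adjusted p = 0.0544). Sost and Dmp1, which mark osteocytes more broadly, had log2FC values of 0.09 ± 0.28 and -0.05 ± 0.40. None of 17 cartilage genes separated, with a median log2FC of -0.59, as levels varied severalfold within groups: Col2a1 was at 1402, 656 and 2303 CPM in Sham and 181, 684 and 1452 CPM in OVX. Among 14 growth plate signalling genes 3 were lower, Fgf23, Gli2 and Spry1 (21.4%, against 11.0% of all well-expressed genes).

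In the Wnt pathway, which drives bone formation, 6 of 43 well-expressed genes were higher and 3 lower without overlap, near the shares of all well-expressed genes. Sfrp1, a secreted Wnt antagonist, was at 14.6, 12.8 and 23.8 CPM in Sham and 27.4, 53.2 and 42 CPM in OVX (log2FC 1.26 ± 0.35, adjusted p = 0.0121), and was the only member to pass DESeq2. The dishevelled genes, which relay the signal, split. Dvl1 was lower at 81.2, 90.6 and 79.2 CPM in OVX against 138, 118 and 93.3 CPM in Sham, while Dvl2 and Dvl3 were higher, Dvl3 at 52.3, 50.7 and 57.3 CPM against 42.6, 40.3 and 47.8 CPM. Of 36 BMP and TGF-beta genes, 2 were higher and 1 lower (5.56% and 2.78%), below the shares of all well-expressed genes. In the IGF system, beside Igfbp2, Igf2 was lower (29, 30.3 and 17.4 CPM in Sham, 13.3, 16.7 and 13 CPM in OVX), as was Stc1, and Igfbp4 and Igf2r were higher.

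Estrogen receptor and target genes gave 1 higher and 2 lower of 16 (6.25% and 12.5%), against 14.4% and 11.0% of all well-expressed genes. Neither share stood out, and no member passed DESeq2. Greb1, a classic estrogen-induced co-regulator, was at 3.3, 4.61 and 5.75 CPM in Sham and 0.463, 2.08 and 1.74 CPM in OVX, a log2FC of -1.67 ± 0.62 (SE, adjusted p = 0.0801). Ccnd1, the cyclin that starts the cell cycle, was at 33.2, 32.7 and 36.1 CPM in Sham and 23.1, 16.8 and 31.6 CPM in OVX, and Ncoa1, a receptor coactivator, was higher with a log2FC of 0.24 ± 0.10. Esr1, the receptor itself, was at 4.04, 3.81 and 3.8 CPM in Sham and 3.52, 5.51 and 4.8 CPM in OVX and overlapped. Pgr and Gper1 were below the count minimum.

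Of 21 genes of the NF-kB system, which mediates inflammatory and B cell survival signals, 6 were higher without overlap and 1, Ptgs2, was lower. Nfkb1 was at 72.1, 80.8 and 96.3 CPM in Sham and 114, 137 and 125 CPM in OVX (log2FC 0.59 ± 0.12, adjusted p = 0.00218), Birc3, an inhibitor of apoptosis, was at 16.6, 21.8 and 19.2 CPM and 27.4, 40.9 and 27.5 CPM, and Rel had a log2FC of 0.40 ± 0.10. In JAK-STAT signalling 4 of 28 were higher and 2 lower (14.3% and 7.14%), no more than among all well-expressed genes (14.4% and 11.0%). Jak1, a kinase of cytokine receptors, was at 179, 185 and 212 CPM in Sham and 238, 279 and 248 CPM in OVX (log2FC 0.41 ± 0.10, adjusted p = 0.00974). Il6st, the shared receptor chain gp130, was at 139, 132 and 114 CPM in Sham and 102, 95.4 and 81.6 CPM in OVX (log2FC -0.47 ± 0.12, adjusted p = 0.0142). Jak1 and Il6st, single members of this list, thus separated in opposite directions.

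Of 29 antioxidant genes, 4 were higher and 3 lower (13.8% and 10.3%), close to the shares of all well-expressed genes. Prdx5, a peroxiredoxin, was at 174, 179.7 and 150.0 CPM in Sham and 221, 215 and 221 CPM in OVX, and Txnrd1, thioredoxin reductase, had a log2FC of 0.31 ± 0.08. Gpx4, the peroxidase that guards membranes against lipid peroxidation, was at 281, 291 and 232 CPM in Sham and 206, 193 and 217 CPM in OVX (log2FC -0.38 ± 0.11, adjusted p = 0.0472). Of 26 glycolysis and hypoxia genes, 4 were higher and 5 lower (15.4% and 19.2%, against 14.4% and 11.0% of all well-expressed genes). They were led by the glycolytic enzyme Eno1, at 346, 356 and 385 CPM in Sham and 478, 496 and 498 CPM in OVX (log2FC 0.44 ± 0.09, adjusted p = 0.000143).

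For most other lists the shares lay at or below those of all genes. Without overlap, 5 ribosomal protein genes were higher and 2 lower of 42, 3 and 1 of 40 oxidative phosphorylation genes, 1 and 1 of 29 proliferation genes, 1 and 1 of 22 collagens, 3 and 2 of 25 unfolded protein response genes, and none of 15 megakaryocyte genes. Blood stem and progenitor genes gave 3 and 3 of 12, above both shares in a short list. Chemokines and their receptors gave 3 and 2 of 21, matrix proteases 3 and 1 of 23, MHC class II genes 1 and 0 of 11, marrow stroma 1 and 0 of 13, and Schwann cell genes 0 and 1 of 8 (12.5%). Interferon-stimulated genes showed 1 higher and 1 lower of 26, and this rested on OVX replicate 3. Irf7, a master regulator of the response, was at 66.6, 106 and 112 CPM in Sham and 66.2, 44.5 and 173 CPM in OVX. Without OVX replicate 3, 13 of the 26 interferon-stimulated genes were lower without overlap, when 13.7% of all well-expressed genes were.

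**Figure D5:**
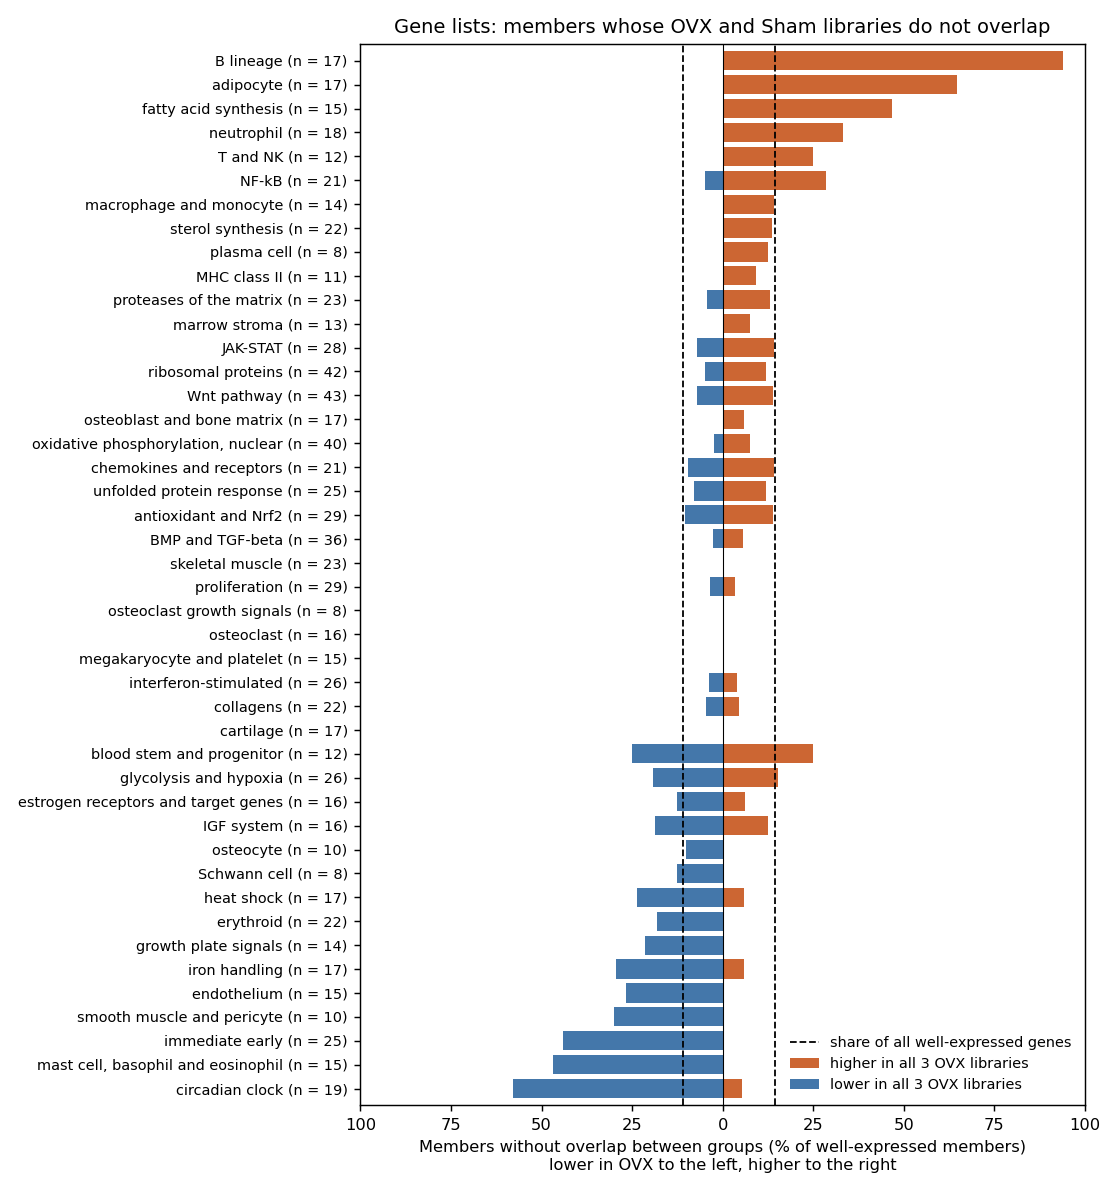
Share of the well-expressed members of each gene list (n in brackets) whose OVX libraries all lay above (orange, right) or all below (blue, left) the Sham libraries, in percent, with dashed lines at the shares of all well-expressed genes (14.4% higher, 11.0% lower). The B lineage and adipocyte lists reach farthest right, and the circadian clock, the mast cell, basophil and eosinophil list and the immediate early genes farthest left.

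The deposited KEGG column gave 284 pathways of 20 to 300 well-expressed genes, with a median share of 15.7% higher and 9.32% lower without overlap. The largest shares of higher genes were in Primary immunodeficiency (13 of 30), Proteasome (18 of 44), B cell receptor signaling pathway (26 of 77), Apoptosis - multiple species (9 of 27) and Olfactory transduction (8 of 25). The olfactory genes were general G-protein and calcium signalling genes such as Grk3, Prkacb and Calm2. The Proteasome members were led by subunits of the immunoproteasome: Psmb8 was at 79.9, 77.7 and 92 CPM in Sham and 114, 121 and 129 CPM in OVX (log2FC 0.55 ± 0.12, adjusted p = 0.00459), and Psmb9 at 55.8, 54.2 and 54.5 CPM and 74.2, 65.9 and 75.7 CPM. The constitutive subunit Psma1 had a log2FC of 0.44 ± 0.12. In that pathway 1 gene, Psmd13, was lower.

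Circadian rhythm had the largest share of lower genes (11 of 31), followed by Autophagy - other (8 of 31), GABAergic synapse (11 of 50), Systemic lupus erythematosus (15 of 70) and ABC transporters (7 of 33). GABAergic synapse also had 13 higher genes, so it had many separated genes in both directions. The lupus pathway was led on its lower side by core histones. Hist1h2ail1, a histone H2A gene, was at 13.5, 24.4 and 12.9 CPM in Sham and 10, 6.86 and 5.34 CPM in OVX (log2FC -1.20 ± 0.39, adjusted p = 0.0425). Histone genes are near-identical copies whose counts are uncertain, and most of their transcripts lack the poly(A) tail by which the libraries were made. Autophagy genes lower in OVX included Ulk1, the kinase that starts autophagosome formation, at 85.9, 96.2 and 86.3 CPM in Sham and 68.2, 68.8 and 64.5 CPM in OVX, and Atg9a, which brings membrane to the forming vesicle (log2FC -0.52 ± 0.12, adjusted p = 0.00467).

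Of the pathways closer to bone, Osteoclast differentiation had 22 higher and 8 lower genes of 117 (18.8% and 6.84%). Its higher genes were led by Nfkb1, Pira2, Btk and Jak1 rather than by osteoclast enzymes. Wnt signaling had 23 and 11 of 136 (16.9% and 8.09%) and TGF-beta signaling 13 and 6 of 87 (14.9% and 6.9%). Estrogen signaling had 11 and 11 of 83 (13.3% each) and JAK-STAT signaling 15 and 13 of 103 (14.6% and 12.6%). For NF-kappa B signaling the numbers were 20 and 8 of 87 (23.0% and 9.2%). None of these reached the 95th percentile of all pathways, 27.1% higher and 16.7% lower. PPAR signaling had 14 higher and 3 lower of 51, and its 27.5% higher lay just above the 95th percentile of all pathways (27.1%). ECM-receptor interaction had 3 higher and 8 lower of 72 (4.17% and 11.1%). Its lower share was about that of all well-expressed genes (11.0%), and only its higher share was small. The laminins Lamc3 and Lamb2 led its lower genes.

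Among 1739 GO terms of the same size range, with medians of 14.1% higher and 9.83% lower, the largest shares of higher genes were in B cell receptor signaling pathway (17 of 38), B cell activation (12 of 27), immunological synapse (18 of 41), positive regulation of superoxide anion generation (10 of 23) and heterotrimeric G-protein complex (9 of 21). Klhl6, a ubiquitin ligase adaptor of germinal centre B cells, was at 83.1, 93 and 117 CPM in Sham and 159, 156 and 166 CPM in OVX (log2FC 0.71 ± 0.13, adjusted p = 0.000297). The G-protein members included Gnai2, the inhibitory subunit that couples chemokine receptors, at 529, 548 and 569.7 CPM in Sham and 645, 680.2 and 693 CPM in OVX. Hvcn1, the proton channel that sustains the oxidative burst, was at 10.5, 11.9 and 12.5 CPM in Sham and 18, 16.8 and 21.4 CPM in OVX. The largest shares of lower genes were in structural constituent of chromatin (13 of 37), phagophore assembly site (9 of 28), negative regulation of epithelial to mesenchymal transition (10 of 32), 2 iron, 2 sulfur cluster binding (7 of 23) and negative regulation of endothelial cell migration (6 of 20). Terms share genes, so these counts are not independent of each other or of the lists above.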

How the data were processed

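Bone RNA from 9 rats was sequenced from poly(A)-selected, strand-specific libraries. The authors trimmed reads, aligned them with Tophat and Bowtie2 to mRatBN7.2 and estimated levels with eXpress. They deposited counts per gene (whole numbers) and FPKM per gene, with GO and KEGG annotation. Deposited FPKM served only as an alternative. Genes passing edgeR's filterByExpr (version 4.0.16, minimum count 10) were fitted over all 9 libraries with TMM scaling and glmQLFTest, without a replicate block. SE is the absolute log2FC divided by the square root of F. DESeq2 1.42.0, limma 3.58.1 on log2(FPKM + 1), other scalings and left-out libraries were alternatives. Replicates are given by the study as separate animals. Same-numbered Sham and OVX libraries did not deviate together (r = 0.20, -0.16 and 0.25), so numbers were not used as pairs. Members and gene lists were chosen with earlier results of these data known. Named genes were the 12 per direction with the widest gap and the 8 with the highest CPM, hub genes and uncharacterised symbols left out, up to 5 separated members per list with the smallest edgeR p plus defining markers, and up to 4 per term. Gzmk, Irf7, Acacb, Hbb, Lamb2 and the overlapping genes given for contrast were chosen after their values were seen. Just inside the count minimum lay Nostrin (mean count 100.0), and just outside it F10 (99.7). In simulated counts for 16659 genes, 136 of 200 genes changed 3-fold were recovered at an adjusted edgeR p under 0.05, and 8 unchanged genes were called. The simulated libraries were drawn independently, without shared differences such as muscle content. A 3-fold change is also larger than most seen here, so this recovery does not give the sensitivity of the comparison. No set test was made. The values of 1 B lineage gene are not reported here, though it is counted in its list.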

Additional observations from a re-analysis of the deposited data

How the results depend on the processing

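Counts of separated genes depended most on Sham replicate 3. Leaving out 1 library at a time gave 2129 to 3662 higher and 1755 to 3066 lower genes, of which 3662 and 3066 came without Sham replicate 3 and 2193 lower without OVX replicate 1, smaller groups separating more easily by construction. A replicate block alternative counted genes whose 3 differences between same-numbered OVX and Sham libraries had the same sign. It gave 3243 and 2713, and every separated gene meets this looser rule, so larger counts follow by construction. Other scalings gave 1833 to 2211 higher and 1164 to 1461 lower genes. Over all genes tested, 182 higher and 343 lower passed an unadjusted edgeR p under 0.05 with an absolute log2FC over 1. These became 32 and 43 with limma on FPKM, 483 and 691 at an absolute log2FC over 0.58, 279 higher without the filter on low counts, and 216 lower with the muscle covariate. They ranged over 141 to 321 higher and 246 to 743 lower when 1 library was left out (321 and 743 without Sham replicate 3, 535 lower without OVX replicate 1). Genes at an adjusted p under 0.05 numbered 0 in edgeR's main design, 834 with DESeq2, 1 with the muscle covariate, 21 with the replicate block, and 0 to 21 when 1 library was left out (21 without Sham replicate 3, 2 without OVX replicate 3). The causes were not tested. The log2FC of 223 genes, not all of them named above, was followed under 14 alternatives. Of the 3122 values, 2773 kept their direction and their side of an unadjusted p of 0.05. A further 267 passed it in the main design and not in the alternative, 64 the reverse, and 18 changed sign. Those 18 belonged to 9 genes whose groups overlapped. With the muscle covariate the log2FC was -0.16 for Acp5, 0.059 for Pecam1 and 0.035 for Runx2. Leaving out 1 library at a time gave -0.77 to 0.27 for Dmp1, -0.0073 to 0.054 for Kdr, -0.23 to 0.080 for Lipe, -0.24 to 0.14 for Pecam1, -0.16 to 0.086 for Runx2, -0.023 to 0.23 for S100a8, -0.14 to 0.24 for Sost and -0.37 to 0.062 for Tfrc.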

Other observations

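The ovariectomised rats given astragaloside IV share the OVX and Sham libraries as their only references, so their levels are given as values. Adipoq was at 91.3, 188 and 185 CPM in OVX-AS-IV-High replicates 1 to 3, Igfbp2 at 16.1, 1.03 and 0.275 CPM, and Erfe at 28.7, 20.5 and 24.2 CPM. Nr1d1 was at 17.8, 24.2 and 14.8 CPM and Npas2 at 10.3, 9.02 and 7.39 CPM, near OVX replicates 1 and 2 rather than OVX replicate 3. The summed level of 17 B lineage genes was 1558, 1907 and 2319 CPM, and that of 23 skeletal muscle genes was 8341, 3651 and 1002 CPM. The summed level of 27 interferon-stimulated genes was 1137, 1425 and 1375 CPM in Sham, 1061, 895 and 1696 CPM in OVX, and 1888, 1059 and 965 CPM in OVX-AS-IV-High, so single libraries of 2 groups stood high.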
